A study of Caenorhabditis elegans with 2 samples.

Results

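The genes described here are 10 that encode the main filaments of worm muscle, chosen by name out of 19973 protein-coding genes. They are the actins act-1, act-2, act-3 and act-4, the myosin heavy chains unc-54, myo-1, myo-2 and myo-3, the paramyosin gene unc-15 and the tropomyosin gene lev-11. For each, peaks of the Caenorhabditis elegans homeobox factor CEH-79 were sought around the starts and inside the gene. ChIP-seq had been done on 2 biological replicates of strain OP553, whose genotype is unc-119(tm4063) III; wgIs553. The integrated transgene wgIs553 encodes CEH-79 carrying GFP and FLAG at its C terminus, and both replicates carry it along with the unc-119 allele. Whole young adults of mixed sex were collected 66 hours after starved first-stage larvae had been synchronized, and anti-GFP antibody was used to precipitate the chromatin. There was 1 group, so no contrast between conditions existed, and a peak does not tell in which cells of the animal the protein was bound.

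In a sarcomere, thin filaments of actin slide along thick filaments of myosin. Tropomyosin lies along actin and, with troponin, gates the access of myosin in response to calcium, while paramyosin forms the core of invertebrate thick filaments. UNC-54 (myosin heavy chain B) and MYO-3 (myosin heavy chain A) are the heavy chains of body wall muscle, and MYO-1 and MYO-2 are those of the pharynx, the pumping organ with which the worm feeds. The genes act-1, act-2 and act-3 lie side by side, and act-4 lies alone on another chromosome.

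The deposited lists give peaks with the authors' own signal for each peak, called in each replicate and on the pooled alignments. A rank of 1 is the highest signal within a list. The pooled list holds 30000 candidates, which the labels describe as peaks and background together, with signals from 23.2 to 409 and a median of 32.6. The authors' optimal list, thresholded on agreement between replicates, holds 566 peaks, which are the pooled candidates ranked 1 to 566, with a lowest signal of 86.5. Replicate 1 gave 30000 candidates with a median signal of 21.1, and replicate 2 gave 29624 with a median of 17.7. Read counts are not part of the lists and the depth is therefore unknown, and signals were compared only within a list. Since a single control alignment served for both replicates, their agreement is not that of fully separate experiments.

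The main result was that 1 of the 10 genes, act-4, held an optimal peak, and that the other 9 held only weaker candidates. This result rests on the peak lists. Sequences at the optimal peak and at selected other candidates follow in lower case, 5′ to 3′ on the strand of the gene. They come from the RefSeq assembly WBcel235, whose coordinates are those of ce11. Each is centred on a pooled summit, except that the window at the first act-4 start ends before that start. Capitals mark matches on either strand to the words TATAAA (the TATA box), CANNTG (the E box), the repeat GAGAGA, the words TTGCGC and also GTTGCC, and TAATTA (a homeodomain core). The first is the optimal act-4 peak, inside the first intron at chrX:4962614-4962764. The second is the candidate at the first act-4 start, chrX:4960504-4960620. The next 3 are the strongest promoter candidates of act-1 (chrV:11080610-11080760), act-3 (chrV:11074764-11074914, minus strand) and myo-2 (chrX:12467657-12467807). The last 2 are the strong candidates outside the genes of the actin cluster, between act-3 and act-2 (chrV:11076289-11076439, minus strand) and past the 3′ end of act-1 (chrV:11082495-11082645).
act-4 first intron: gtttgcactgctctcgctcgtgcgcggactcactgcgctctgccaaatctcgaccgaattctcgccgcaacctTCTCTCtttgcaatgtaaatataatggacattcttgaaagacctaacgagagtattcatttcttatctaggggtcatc
act-4 first start: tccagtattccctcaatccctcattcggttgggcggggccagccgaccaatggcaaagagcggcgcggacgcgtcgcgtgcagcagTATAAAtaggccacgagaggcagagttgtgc
act-1 upstream: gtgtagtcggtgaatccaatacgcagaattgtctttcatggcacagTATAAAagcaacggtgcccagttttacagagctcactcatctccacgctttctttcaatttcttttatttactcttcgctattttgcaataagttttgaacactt
act-3 upstream: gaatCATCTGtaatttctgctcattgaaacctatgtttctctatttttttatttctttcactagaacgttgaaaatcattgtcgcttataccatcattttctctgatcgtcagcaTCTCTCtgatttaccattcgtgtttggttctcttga
myo-2 upstream: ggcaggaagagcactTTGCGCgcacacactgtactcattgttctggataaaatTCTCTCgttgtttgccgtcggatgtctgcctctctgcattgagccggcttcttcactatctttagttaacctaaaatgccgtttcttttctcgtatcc
act-3 to act-2 gap: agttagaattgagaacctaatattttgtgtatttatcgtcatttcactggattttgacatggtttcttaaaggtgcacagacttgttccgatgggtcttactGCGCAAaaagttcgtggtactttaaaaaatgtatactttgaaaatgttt
act-1 downstream: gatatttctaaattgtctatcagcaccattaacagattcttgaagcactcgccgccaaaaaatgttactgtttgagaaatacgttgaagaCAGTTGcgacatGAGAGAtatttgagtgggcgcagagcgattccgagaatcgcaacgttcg

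The 7 windows differed in base composition. The window at the first act-4 start was 60.7% G and C, the act-4 intron 47.0% and the myo-2 window 46.4%, while the act-1 window was 38.4%, the act-3 window 33.8% and the window between act-3 and act-2 33.1%. The homeodomain core TAATTA was in none of them.

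A candidate was called a promoter candidate when its summit lay between 1000 bp upstream and 200 bp downstream of any protein-coding transcript start, and an in-gene candidate when its summit lay between the gene ends. The pooled list placed a promoter candidate at 7 of the 10 genes, all but unc-54, myo-1 and myo-3, against 36.0% of all protein-coding genes. Of the 7, unc-15 and lev-11 counted through internal starts alone. With the 5′ end of each gene model alone the count was 5, and the share of all genes under that rule is not given here. The pooled list placed a candidate inside 9 of the 10, all but act-1, against 49.9% of all genes and 57.0% of the 12944 genes whose length lies within the range of these 10, 1364 to 9926 bp. The median length was 6941 bp for the 10 genes and 2027 bp over all genes, and a shared range does not match genes by length. How length bears on the in-gene count was not tested. The optimal list placed a summit in a promoter window of 1 gene and inside 1 gene, act-4 in both cases and by the same peak, against 1.48% and 1.34% of all genes. Each replicate alone placed a promoter candidate at 7 genes and an in-gene candidate at 9.

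In all, 46 pooled candidates lay at the 10 genes, 14 of them in promoter windows and 41 inside genes, with 9 counted in both. No gene for a snRNA, snoRNA or tRNA was annotated within 500 bp of their summits. Of the 46, 26 (56.5%) were overlapped by a candidate of both replicates, against 49.5% of all pooled candidates. A further 11 were overlapped in replicate 1 alone and 9 in replicate 2 alone, and neighbouring pooled candidates could share a replicate match. A deposited q of at most 0.05 was reached by 2 of the 46, both at act-4, against 5.95% of all pooled candidates. The median rank of the strongest candidate per gene was 7135.5 for the 10 genes, 9780 over the 12015 genes with any candidate and 9997 over the 8460 of these in the same length range. Genes were not matched by length within that range, and how length bears on these ranks was not tested.

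**Figure D1:**
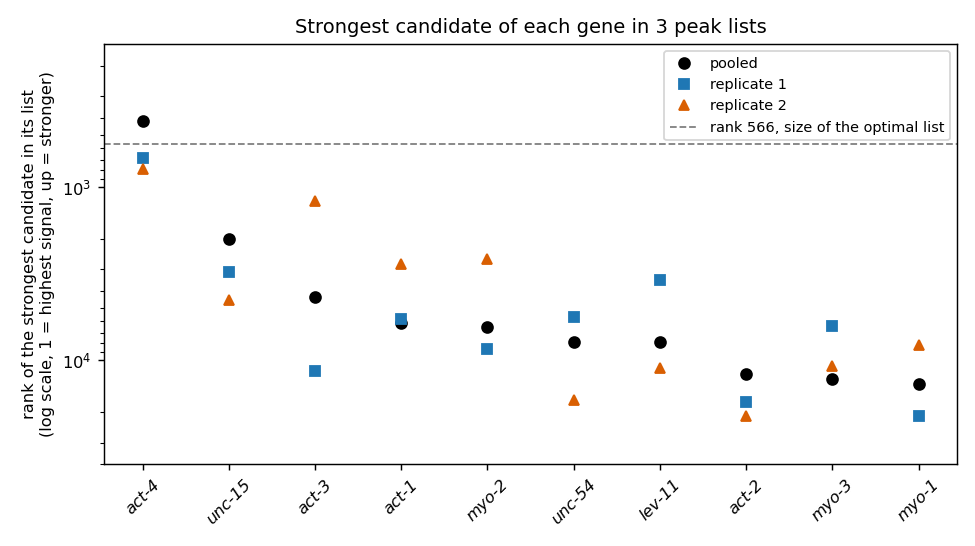
Rank of the strongest candidate of each gene, in its promoter window or body, in the pooled list (circles), replicate 1 (squares) and replicate 2 (triangles), on a log axis with rank 1 upward; the dashed line is rank 566, the length of the optimal list. The pooled rank of act-4, 420, is the one point above the line, and the other pooled ranks run from 2015 for unc-15 to 13807 for myo-1.

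The plot of strongest ranks shows that the replicates ordered the genes differently below act-4. In replicate 1 the best ranks ran from 682 for act-4 to 21145 for myo-1, with a median of 6080, and in replicate 2 from 789 for act-4 to 21025 for act-2, with a median of 6382. No candidate at these genes was among the 566 strongest of either replicate. The strongest act-3 candidate ranked 11536 in replicate 1, in the 3′ UTR, and 1212 in replicate 2, 356 bp upstream of the start. That of lev-11 ranked 3449 in replicate 1, in an intron, and 11183 in replicate 2, in the 3′ UTR. For both genes these are different candidates in the 2 replicates. The order of neighbouring genes by best rank thus changed between the replicates.

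Among the actins, act-4 (X, 4960621 to 4964413, plus strand), which is made in body wall muscle and other tissues, had the most candidates, with 8 in the pooled list. The optimal peak (X, 4962477 to 4962900) had a signal of 94.4 and rank 420, and 146 optimal peaks ranked below it. The same position had a signal of 50.5 and rank 682 in replicate 1, with the summit at 4962687, and a signal of 36.3 and rank 1092 in replicate 2, with the summit at 4962695. The pooled summit was at 4962689, so the 3 lists placed it within a few bases of each other. The deposited −log10 q of this peak was 2.48 in the pooled list, 2.09 in replicate 1 and 1.91 in replicate 2.

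The optimal summit lay in the first intron of act-4, before the second coding exon, whose intron sequence is the first one shown. It counted as a promoter candidate because the annotation has a second, shorter transcript that starts 2254 bp past the first start, and the summit was 186 bp upstream of that start. That second start coincides with an annotated start codon inside a coding exon of the longer transcript, so no 5′ UTR is annotated for it. With starts that have an annotated 5′ UTR alone, 0 of the 10 genes had an optimal summit in a promoter window.

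The first act-4 start had a candidate of its own, with the summit 42 bp upstream, a pooled signal of 62.1 and rank 1751. It ranked 6626 in replicate 1 (signal 27.8) and 1275 in replicate 2 (signal 35.0), and its window, shown above, holds a TATAAA shortly before the start. A candidate 580 bp into the gene, in the same intron, had a pooled signal of 60.2 and rank 1968. Replicate 2 placed its strongest act-4 candidate there, at rank 789 with a signal of 39.5, whereas the nearest candidate of replicate 1 had its summit 955 bp into the gene, at rank 5200. A coding-exon candidate with its summit at 4962921 had a pooled signal of 56.6 and rank 2466, and ranked 3814 in replicate 1 and 20447 in replicate 2. The remaining 4 act-4 candidates ranked between 4482 and 24260.

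**Figure D2:**
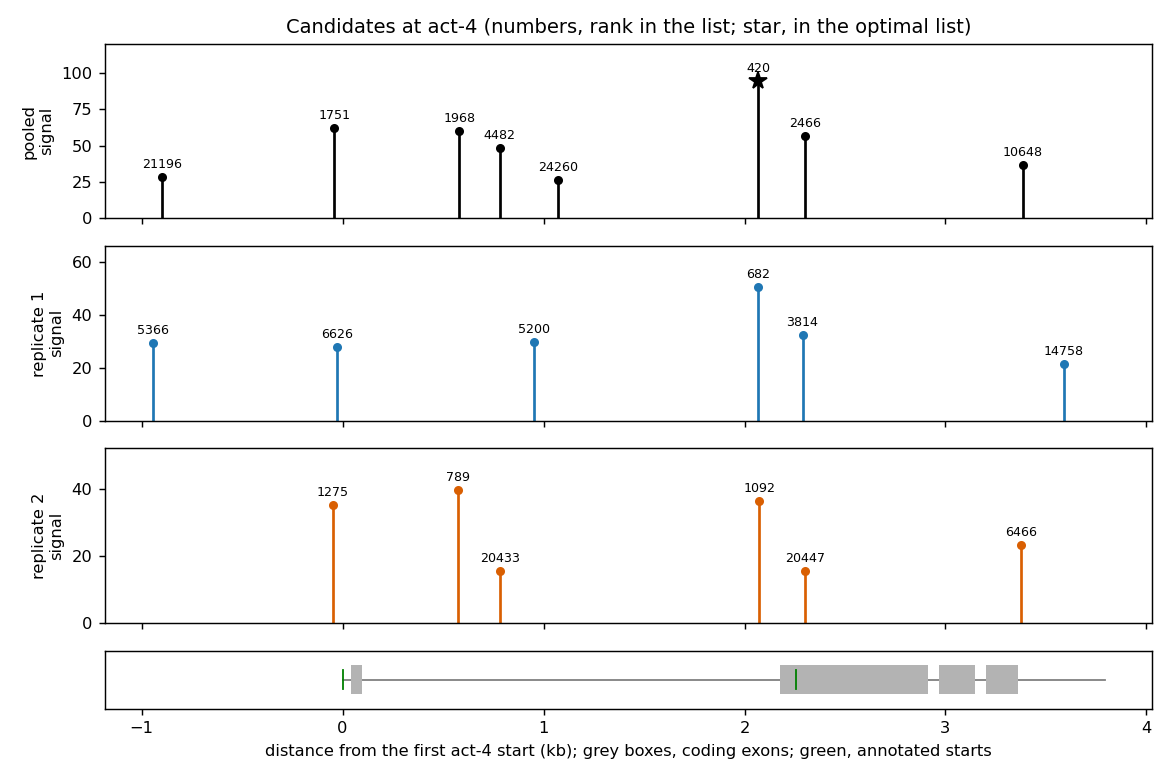
Candidates at act-4 by distance from its first annotated start (kb), with the signal of each list on its own vertical axis, the rank above each point and the gene model below. The star at rank 420 is the optimal peak, in the first intron; the candidates at its position ranked 682 in replicate 1 and 1092 in replicate 2.

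The actin genes act-3 (V, 11071690 to 11074498, minus strand), act-2 (V, 11076777 to 11078154, minus strand) and act-1 (V, 11081052 to 11082415, plus strand) supply actin to body wall muscle. From 1000 bp before act-3 to 1000 bp past act-1, an interval of 12.7 kb, the pooled list held 12 candidates and the optimal list none. That is 0.943 candidates per kb, against 0.299 over the genome. Replicate 1 held 12 candidates there and replicate 2 held 10. Of the pooled candidates, 8 lay outside the 3 genes and 4 inside them.

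The strongest candidates of the cluster were in the 2278 bp between act-3 and act-2 and were promoter candidates of neither gene. The one at 11076364 had a pooled signal of 83.5 and rank 629, just under the optimal threshold. It lay 413 bp beyond the 3′ end of act-2 and 1866 bp upstream of act-3. Its neighbour at 11076563 had a pooled signal of 78.8 and rank 762. Replicate 1 also had both summits, at 11076368 with a signal of 39.3 and rank 1807 and at 11076570 with a signal of 30.9 and rank 4494. Replicate 2 had a single peak, with a signal of 56.2, rank 184 and its summit at 11076502, which lies between the pair and closer to 11076563, so it cannot be assigned to either. Another candidate of the gap, at 11075740, had a pooled signal of 59.3 and rank 2073, and ranked 8785 in replicate 1 and 847 in replicate 2. Noncoding RNA genes of an unspecified class are annotated in the gap. T04C12.14 spans the pooled summit at 11076563 and the replicate 2 summit at 11076502, and T04C12.15 and T04C12.21 span the pooled summit at 11075740. Past the 3′ end of act-1, by 155 bp, a candidate at 11082570 had a pooled signal of 68 and rank 1276, and ranked 6902 in replicate 1 and 1014 in replicate 2.

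**Figure D3:**
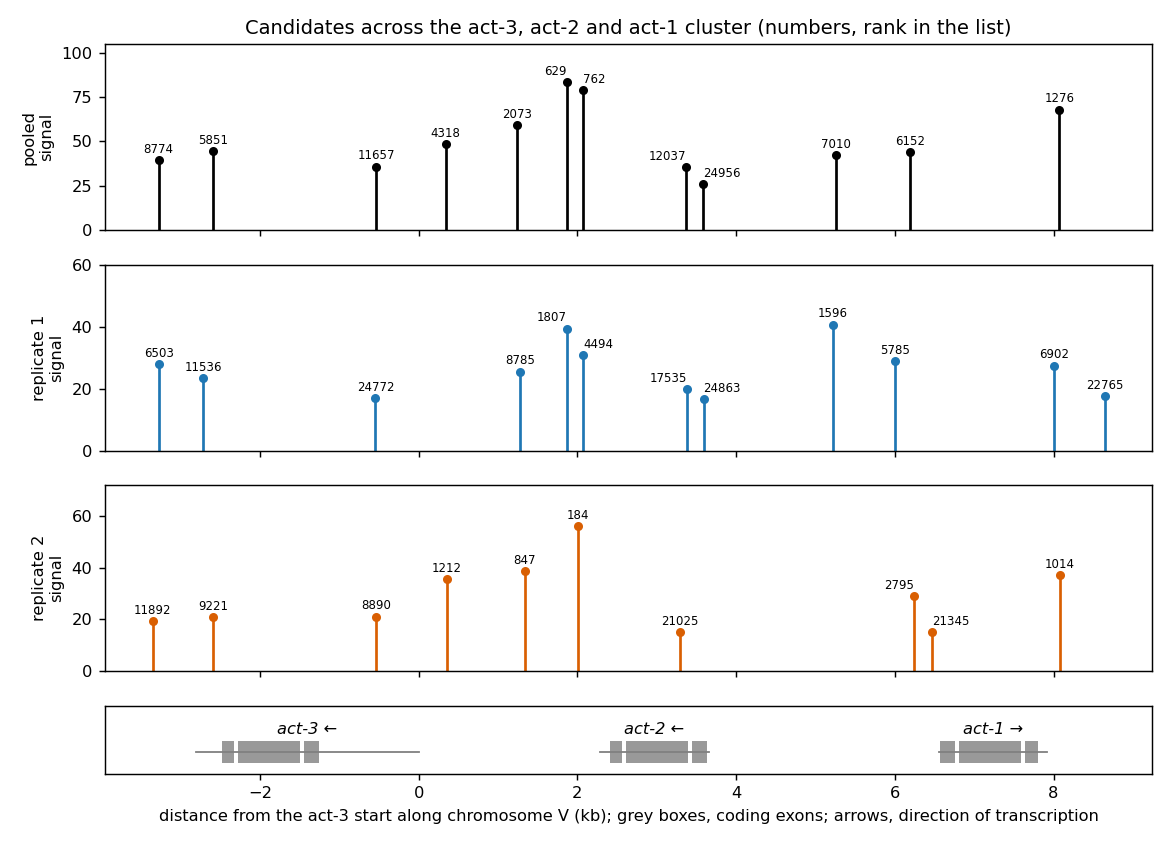
Candidates across the actin cluster on chromosome V by distance from the act-3 start (kb), with the signal of each list on its own vertical axis, the rank beside each point and the 3 genes below with arrows for the direction of transcription. The tallest pooled points, ranks 629 and 762, stand between act-3 and act-2, and the next, rank 1276, past the 3′ end of act-1.

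Closer to the starts the signals were lower. The act-1 candidate 367 bp upstream of its start had a pooled signal of 43.9 and rank 6152, with ranks of 5785 in replicate 1 and 2795 in replicate 2. The act-3 candidate 341 bp upstream of its start had a pooled signal of 48.6 and rank 4318, was seen in replicate 2 at rank 1212 (signal 35.5), and had no overlapping candidate in replicate 1. Both candidates of act-2 lay in coding exons, 289 and 75 bp past its start, with pooled signals of 35.4 and 25.9 and ranks of 12037 and 24956. In replicate 2 the single act-2 candidate ranked 21025. A candidate between act-2 and act-1, at 11079751, ranked 7010 in the pooled list and 1596 in replicate 1, and had no overlapping candidate in replicate 2.

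The coding sequences of these genes are near copies of one another, which bears on what reads can show. Over 1128 coding bases act-1 and act-3 had 0 differences, act-2 differed from both at 43 positions (96.2% identity), and act-4 differed from act-1 and act-3 at 65 (94.2%) and from act-2 at 91 (91.9%). The stretch from coding base 19 to base 78 is shown because the act-2 candidate 75 bp past the start has its summit in it, with capitals at bases that differ from act-2.
act-1: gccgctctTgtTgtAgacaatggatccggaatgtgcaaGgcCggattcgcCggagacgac
act-2: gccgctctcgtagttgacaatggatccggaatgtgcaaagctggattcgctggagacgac
act-3: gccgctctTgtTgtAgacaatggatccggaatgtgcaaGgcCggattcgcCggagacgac
act-4: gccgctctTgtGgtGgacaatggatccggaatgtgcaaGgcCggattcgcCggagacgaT

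These stretches lie at chrV:11081091-11081150 for act-1, chrV:11078050-11078109 on the minus strand for act-2 and chrV:11073166-11073225 on the minus strand for act-3, and that of act-4 is split by its first intron, from X 4960680 to 4962820. Counted from the first base shown, act-1 and act-3 carry C9T, A12T, T15A, A39G, T42C and T51C relative to act-2, and act-4 carries C9T, A12G, T15G, A39G, T42C, T51C and C60T.

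Of all words of 32 bases in the act-1 gene, 87.8% had another exact copy in the genome, as did 41.9% in act-3, 38.2% in act-2 and 6.75% in act-4. In the act-2 exon peaks the share was 21.4% and 8.14%, in the optimal act-4 peak 0.763%, and in the intergenic peaks of the cluster 0%. It was 18.3% in the act-3 3′ UTR peak, 12.7% in the act-4 3′ UTR peak and 20.9% in the lev-11 intron peak with its summit at 14627034. No list had a candidate inside act-1, and none had a coding-exon candidate in act-3. Whether reads with more than 1 place in the genome were kept is not given in the sources used here, and the part of copied sequence in these absences was not tested.

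At the 4 myosin heavy chain genes the pooled list held 20 candidates, 19 of them inside the genes, and 17 of the 19 had the summit in a coding exon. Coding sequence makes up 71.7% (myo-1) to 80.1% (myo-2) of the length of these genes, so most summits placed anywhere in them would fall in a coding exon. In replicate 1, 13 of 17 in-gene candidates had the summit in a coding exon, and in replicate 2, 10 of 14, and both candidates of myo-1 in replicate 1 were in introns. The body wall gene unc-54 (I, 14855901 to 14863482, minus strand) had 6 candidates, all inside the gene. Its strongest, in a coding exon near the 3′ end, had a pooled signal of 40.9 and rank 7830, and ranked 12770 in replicate 1 and 17148 in replicate 2. The same summit lies in the promoter window of aex-5, a proprotein convertase gene. The intron candidate of unc-54, 1122 bp past the start, had a pooled signal of 40.1 and rank 8277, with ranks of 5639 in replicate 1 and 24832 in replicate 2.

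In myo-3 (V, 12226817 to 12234343, minus strand), the other body wall heavy chain, the 4 pooled candidates were all in coding exons. The strongest had a pooled signal of 34.6 and rank 12864, with ranks of 8840 in replicate 1 and 18663 in replicate 2. Its promoter window held candidates in replicate 2 alone, 501 bp upstream of the start at rank 10819 and 18 bp past it at rank 19275. The pharyngeal gene myo-1 (I, 7258946 to 7267057, minus strand) had 5 pooled candidates, also all in coding exons. The strongest ranked 13807 with a signal of 33.7, was seen in replicate 2 at rank 14124, and had no overlapping candidate in replicate 1. For 4 of the 5 no candidate of replicate 1 overlapped, and the fifth was matched in replicate 1 alone.

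The other pharyngeal gene, myo-2 (X, 12468061 to 12475348, plus strand), was the one heavy chain with a promoter candidate in the pooled list, whose sequence is shown above. Its summit lay 329 bp upstream of the start, with a pooled signal of 43.3 and rank 6441. Replicate 1 placed the summit 329 bp upstream with a signal of 22.8 and rank 12357, and replicate 2 placed it 333 bp upstream with a signal of 18.4 and rank 13397. The positions matched closely while both replicate ranks were lower in their lists than the pooled rank. The summit also lies in the promoter window of cdf-2, a zinc transporter gene, so it cannot be assigned to myo-2 alone. Inside the gene, a coding-exon candidate ranked 13585 in the pooled list and 2612 in replicate 2 (signal 29.5), with no overlapping candidate in replicate 1.

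**Figure D4:**
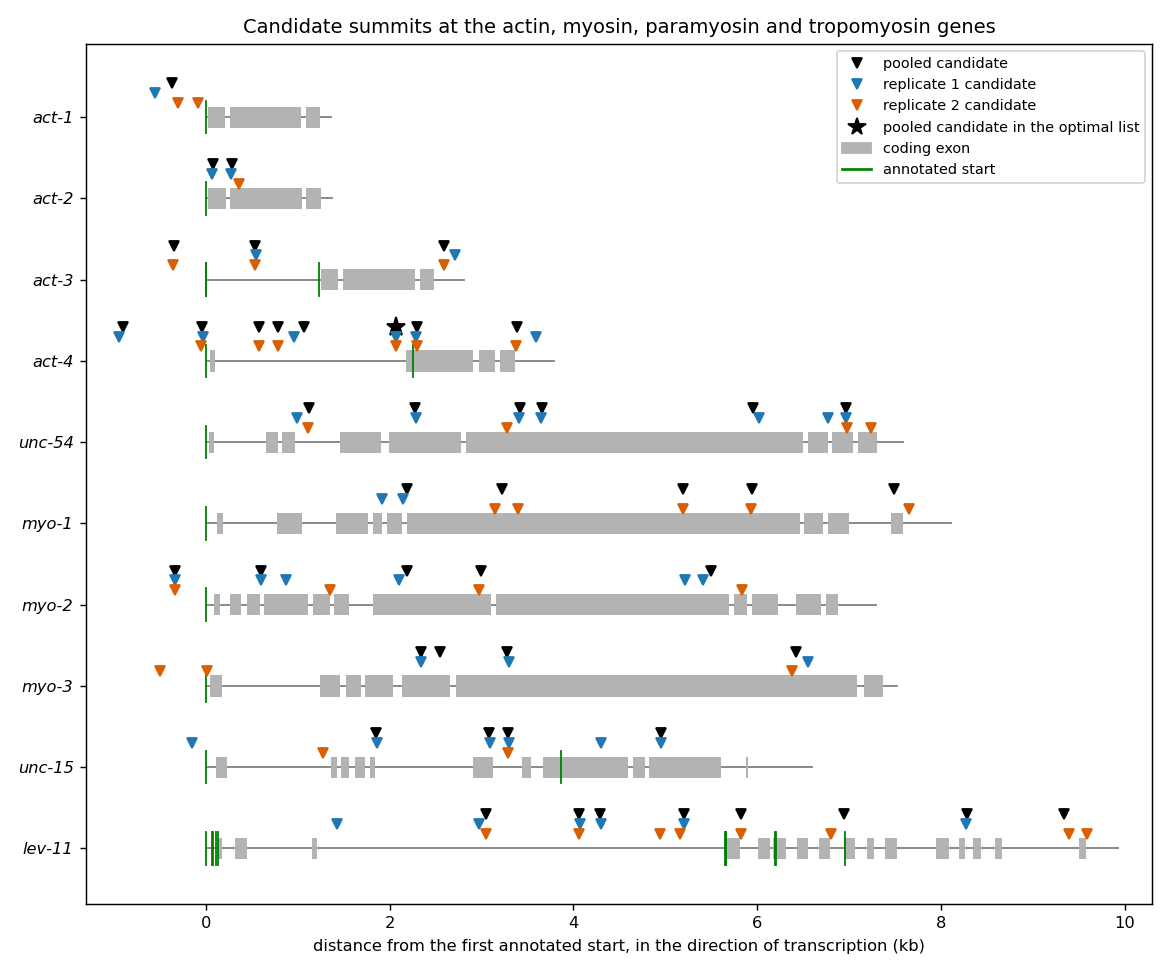
Summits of pooled, replicate 1 and replicate 2 candidates along each of the 10 genes, by distance from the first annotated start in the direction of transcription (kb), with coding exons as boxes and annotated starts as green lines. The star marks the optimal peak of act-4, and no pooled candidate stands upstream of the first start of act-2, unc-54, myo-1, myo-3, unc-15 and lev-11.

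Along the coding sequence, the pooled exon candidates lay at 18.3, 36.8, 40.9, 79.7 and 95.3% of the length in unc-54 and at 16.6, 34.4, 68.2, 81.0 and 98.3% in myo-1. They lay at 17.2, 20.8, 31.9 and 85.2% in myo-3 and at 26.1, 39.8 and 81.9% in myo-2. Across the 4 genes, 10 fell in the first 50% of the coding sequence, which encodes the motor head and the start of the rod, and 7 in the remainder. In replicate 1 the split was 7 and 6, and in replicate 2 it was 4 and 6, so no end of the coding sequence was favoured in both. The 4 coding sequences were 67.0 to 71.8% identical, and at most 6.87% of the words of 32 bases in any of these exon peaks had another copy in the genome.

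**Figure D5:**
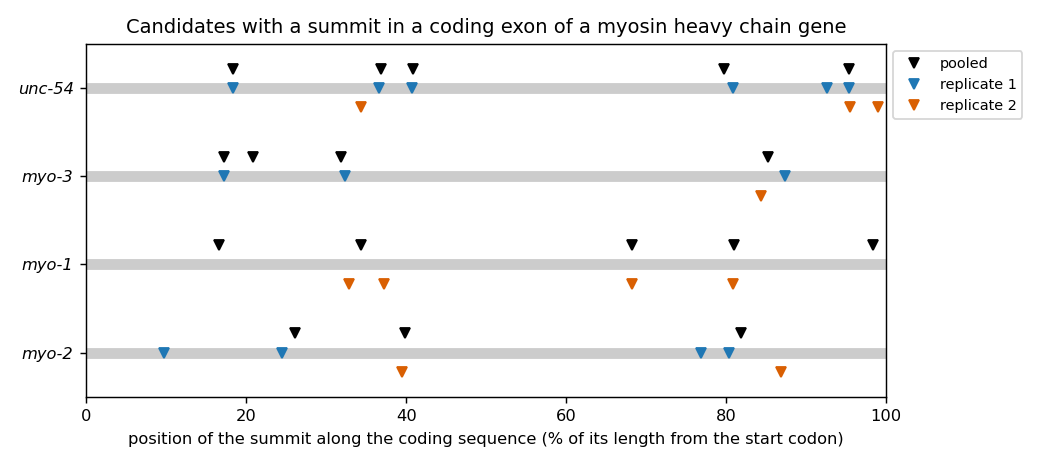
Position of each coding-exon summit along the coding sequence of the 4 myosin heavy chain genes (% of its length from the start codon), for the pooled list (top), replicate 1 (middle) and replicate 2 (bottom). In the pooled list 10 summits fall in the first 50% of the length and 7 in the rest.

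For paramyosin, unc-15 (I, 7376604 to 7383197, minus strand) had the strongest candidate after act-4 in the pooled list and in replicate 1. In replicate 2, act-3 (1212), myo-2 (2612) and act-1 (2795) had a better best rank than the 4522 of unc-15. The candidate had a pooled signal of 59.8 and rank 2015, a signal of 34.0 and rank 3102 in replicate 1, and a signal of 25.6 and rank 4522 in replicate 2, with the 3 summits between 7379900 and 7379905. It lies in an intron and counts as a promoter candidate through a second annotated start, 576 bp further on and 3869 bp past the first, which again coincides with a start codon inside a coding exon. At the first start the only candidate was in replicate 1, 150 bp upstream at rank 23081. The other 3 pooled candidates of unc-15 ranked 13466, 14015 and 22942.

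For tropomyosin, lev-11 (I, 14621169 to 14631094, minus strand) is annotated with 20 coding transcripts from 11 starts, and its 8 pooled candidates all had summits in introns. The strongest, between exons near the 3′ end, had a pooled signal of 40.8 and rank 7857, ranked 3449 in replicate 1 (signal 33.1) and had no overlapping candidate in replicate 2. The strongest in a promoter window, 448 bp upstream of an internal start, had a pooled signal of 37.0 and rank 10565, with ranks of 8721 in replicate 1 and 14771 in replicate 2. No candidate of any list lay in the windows of the first 5 starts, which share the 5′ end of the gene.

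Set against position, the strongest pooled candidate lay in a promoter window for 5 of the 10 genes (act-1, act-3, act-4, myo-2 and unc-15), against 42.6% of the 12015 genes with any candidate. Of the 41 in-gene candidates, 22 (53.7%, exact 95% interval 37.4 to 69.3%, counting error alone) had the summit in a coding exon, against 47.5% of the 21670 in-gene candidates of all genes. Coding exons make up 57.2% of the length of these genes and 38.3% of that of all genes. Introns held 17 (41.5%, against 43.3%), 3′ UTRs held 2 (4.88%, against 6.16%), and 5′ UTRs held 0, which allows up to 7.32% (3 counts of the total), against 3.03%. The interval for coding exons holds the share over all genes. It counts neighbouring candidates of the same gene as independent, and it leaves aside the larger coding part of these genes. It therefore cannot decide whether exons were preferred.

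Density differed more than position. In-gene candidates numbered 0.727 per kb in the 10 genes, 0.336 in all genes and 0.337 in genes of the same length range. Coding exons held 0.682 summits per kb of coding sequence, against 0.417 over all genes, and the rest of the gene held 0.788 per kb, against 0.286. No transcript levels and no untagged strain were analysed here.

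In signal, the promoter candidates of the 10 genes had the higher median. The 14 promoter candidates had a median signal of 40.1 and ran from 24.0 to 94.4, and the 19 coding-exon candidates outside promoter windows had a median of 30.1 and ran from 24.4 to 40.9. The groups overlapped, and they came from different genes. The 4 myosin heavy chain genes gave 17 of the 19 coding-exon candidates and 1 of the 14 promoter candidates, at myo-2. Another 4 of the 14 were at act-4, among them the one of 94.4. Some of the 14, at act-2, act-4 and unc-15, themselves had the summit in a coding exon. Whether the medians of the 10 genes differed by position or by gene was not tested. Over all genes the medians were closer, 33.4 for 8947 promoter candidates and 32.4 for 7889 coding-exon candidates outside windows. Mean G and C content over 101 bp at the summit was 45.1 ± 9.35% (SD, n = 14) for the promoter candidates and 48.6 ± 5.42% (SD, n = 19) for the exon candidates, against 41.6 ± 9.0% (SD, n = 30000) for all pooled candidates and 46.9 ± 9.21% (SD, n = 566) for optimal peaks.

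Sequence words at the 46 summits were counted on both strands of 151 bp. TAATTA was in 0, which allows up to 6.52%, against 4.76% of all pooled and 4.06% of optimal summits. CANNTG was in 54.3%, against 48.6% of pooled summits, and TATAAA in 8.70%, against 11.1%. GAGAGA was in 17.4%, against 11.6%, and TTGCGC in 8.70%, against 4.63%. GTTGCC was in 6.52%, against 4.95%. The CArG box, the site of serum response factors, was in 0, which allows up to 6.52%, against 0.753%, so this 0 does not show a lack. In the 300 bp from 250 bp before to 50 bp after the first start, GAGAGA was present in 7 of the 10 genes, against 21.8% of all promoters of this length, and TATAAA in act-4 alone, against 38.0%. CANNTG was in 7, against 69.4%, GTTGCC in 3, against 7.29%, and TTGCGC in 1, against 7.10%. TAATTA was in 1, act-2, against 15.5%, and the CArG box in 0, against 1.54%, a share for which 10 promoters are too few to show a lack. These are matches of letters, and a TATAAA further upstream, as in the act-1 window, falls outside the 300 bp.

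Other genes of muscle were read from 5 lists of 65 genes in all. A pooled promoter candidate was present at 36 of the 65, against 36.0% of all protein-coding genes, and an in-gene candidate at 51, against 49.9%, without regard to gene length, and the median rank of the strongest candidate over the 54 genes with any was 7109, near the 7135.5 of the filament genes. Among 19 further thin filament genes, such as troponins and actin-binding proteins, 9 had a promoter candidate and 16 an in-gene candidate. None had an optimal summit, which 1.48% of all genes had in a promoter window and 1.34% inside the gene. The highest of them was unc-94, a tropomodulin gene, at rank 670 (signal 82). Among 16 further thick filament and myosin genes, 8 had a promoter candidate and 12 an in-gene candidate, with unc-22, the twitchin gene, highest at rank 818 (signal 77.3). Among 17 genes of the attachments that anchor filaments to the membrane, 11 had a promoter candidate and 13 an in-gene candidate, with lim-8 highest at rank 722 (signal 80.3). These 3 genes are named as the highest of their lists, after their values were seen.

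Excitation and calcium genes numbered 7, of which 5 had a promoter candidate and all an in-gene candidate. For this list and the next, the shares over all protein-coding genes were 36.0% and 49.9%, without regard to gene length. The single optimal peak of the 65 genes was in this list. That count is near what the 1.48% of all genes with an optimal promoter summit gives for 65 genes. The peak was at sca-1, which encodes the calcium pump of the sarcoplasmic reticulum. Its peak (III, 10817017 to 10817440) had a signal of 88.1 and rank 530, with the summit 379 bp upstream of the start, and it ranked 208 in replicate 1 and 4908 in replicate 2. Among 6 regulators of muscle genes, 3 had a promoter candidate and 3 an in-gene candidate, with a median strongest rank of 11634 over the 4 with any. Of the filament genes and these lists together, act-4 and sca-1 were the ones with an optimal peak.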

How the data were processed

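The authors called peaks for each replicate and for both replicates pooled, with a single control alignment, per the deposited notes, and took the optimal list from these by the irreproducible discovery rate. Neither aligner nor peak caller is given in the sources used here. The authors' signal, as deposited for each peak, served only to describe and rank peaks within a list. The deposited −log10 q is also the authors' value. Lists in ce11 were used, and those in ce10 were not used here. Without read counts the depth is unknown. The 1 interval given is an exact binomial one over peaks, and the limit given for a count of 0 is 3 counts of the total. Both cover counting error only.

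Gene models came from Ensembl release 115 and sequence from RefSeq, both WBcel235, with 1-based coordinates. Summits were classed as coding exon, 5′ UTR, 3′ UTR or intron in that order, using every coding transcript. A replicate match was the strongest replicate candidate overlapping a pooled one by at least 1 bp. Peak windows, identities (edit distance) and repeated words of 32 bases were computed from the assembly, and the classing and counting were tested on simulated data. With 1 group of 2 replicates, no test between groups was made.

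The genes and the 5 muscle lists were chosen with earlier results of these data known, so no count is independent support. Named were all 10 genes, genes sharing a summit with them and list genes with an optimal summit, and outside this rule unc-94, unc-22 and lim-8, chosen after their values were seen. Alternatives varied the window, the starts, the threshold, the match rule and the replicate. Without one replicate, the candidates of the other stood for the pooled list and its 566 strongest for the optimal list. The software was edlib 1.3.9.post1, scipy 1.17.1 and numpy 2.4.6 under Python 3.11.15, with figures by matplotlib 3.10.9.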

Additional observations from a re-analysis of the deposited data

How the results depend on the processing

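Of 29 alternative values over 6 counts and shares, 20 stayed within 1.5 times the count given, or within the exact interval of the share, and 9 did not. The optimal promoter count of 1, act-4, became 0 with the 5′ end of each gene model alone, 0 with only starts that have an annotated 5′ UTR (chosen after seeing the data) and 0 in the stronger 283 optimal peaks. The optimal in-gene count of 1 also became 0 in those 283. Without replicate 1 or replicate 2, both optimal counts were 0, since the act-4 peak ranked 682 and 1092 in the replicates, beyond the 566 that stood in for the optimal list. The number of genes whose strongest candidate lies in a promoter window, 5 in the pooled list, ranged from 3 to 4 when either replicate was left out, with 3 without replicate 2. It was 4 with a window of 500 bp upstream to 100 bp downstream and 7 with 2000 bp upstream to 500 bp downstream. The pooled promoter count of 7 ran from 5 (5′ end of the gene model alone) to 8 (the wider window), and was 6 with only starts that have an annotated 5′ UTR. The pooled in-gene count of 9 was 10 when any overlap of the peak with the gene counted. The coding-exon share of 53.7% was 37.5% without replicate 1 (32 candidates), 52.8% without replicate 2 (36) and 42.9% in the stronger 15000 pooled candidates (21). No paired analysis was possible because the 2 replicates form 1 group. With no read counts, how depth limits the weak candidates is unknown.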
